A study of Mus musculus with 12 samples.

Results

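The 8 genes described here encode proteins that detect or act on RNA in the cytosol. They are Ifih1, Ddx58, Dhx58, Mavs, Trim25, Zbp1, Eif2ak2 and Adar, chosen by name for this role, and each matched 1 of the 54532 gene identifiers in the deposited count table. Their RNA was measured by sequencing of poly-A RNA from B lymphocytes sorted from mice. The 4 groups had 3 libraries each: Tmem173-/- cells given 3'3'-cGAMP for 12 hours, Tmem173-/- control cells, wild type cells given 3'3'-cGAMP for 12 hours, and wild type control cells. STING, the product of Tmem173, is a receptor that binds cyclic dinucleotides such as the bacterial messenger 3'3'-cGAMP. The labels name 3 mice per genotype for 6 libraries per genotype and do not say which libraries share a mouse, so p-values measure the spread between these libraries. The cells are a bulk population, in which a change in the share of a cell type and a change in RNA per cell cannot be told apart.

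RIG-I-like receptors are helicases that bind double-stranded RNA in the cytosol and pass the signal to MAVS, an adaptor on mitochondria, which activates the kinases and transcription factors that induce type I interferon. ZBP1, PKR (the product of Eif2ak2) and ADAR1 (the product of Adar) also bind double-stranded RNA: ZBP1 starts cell death, PKR stops translation, and ADAR1 edits adenosine to inosine and so keeps the cell's own RNA from being sensed. Most of these genes are known to be induced by interferon in many cell types. STING, by contrast, responds to cyclic dinucleotides and not to RNA.

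The genes lie on several chromosomes of GRCm38, and all are protein-coding. Ifih1 (ENSMUSG00000026896) is on chromosome 2 from 62595798 to 62646255, Ddx58 (ENSMUSG00000040296) on chromosome 4 from 40203773 to 40239828, and Dhx58 (ENSMUSG00000017830) on chromosome 11 from 100694884 to 100704271. Mavs (ENSMUSG00000037523) is on chromosome 2 from 131234063 to 131248025, Trim25 (ENSMUSG00000000275) on chromosome 11 from 88999376 to 89020293, and Zbp1 (ENSMUSG00000027514) on chromosome 2 from 173206612 to 173218923. Eif2ak2 (ENSMUSG00000024079) is on chromosome 17 from 78852564 to 78882573 and Adar (ENSMUSG00000027951) on chromosome 3 from 89715022 to 89753446.

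Sequence around the start sites was available for 6 of the 8 genes in RefSeq (GRCm38.p6), as windows of 300 bases from 250 before to 50 after the start. Adar had 3 such windows and the other 5 genes 1 each, while Dhx58 and Zbp1 had no entry. The windows were searched on both strands for 4 motifs, picked after these sequences had been read, so finding them here is no test. The stretches below are printed for the 5 genes with a match to GAAANNGAAA or GGAANNGAAA. All 8 genes, whether or not a match was found, differed between cGAMP and control in wild type cells (edgeR adjusted p under 0.05). The same held for 47.8% of all tested genes, so this does not set the 5 apart. Capitals mark the motif, and positions count the start site as 1. In Ifih1 the core of the interferon-stimulated response element, GAAANNGAAA, lies at positions 33 to 42 (chr2:62646206-62646233, minus strand), in Ddx58 at 3 to 12 on the opposite strand (chr4:40239804-40239833, printed on the minus strand of the gene), and in Eif2ak2 at 19 to 28 (chr17:78882535-78882564, minus strand). The related ETS-IRF composite GGAANNGAAA lies at positions 28 to 37 of the third of the Adar start sites (chr3:89730735-89730764, plus strand) and at -4 to 6 on the opposite strand in Trim25 (chr11:88999389-88999418, printed on the plus strand of the gene).
Ifih1: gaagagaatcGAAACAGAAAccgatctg
Ddx58: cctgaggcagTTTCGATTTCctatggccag
Eif2ak2: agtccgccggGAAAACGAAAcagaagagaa
Adar: gccttttcaaGGAAACGAAAgtgaactctg
Trim25: tcctgttcagTTTCGATTCCttcctcgctg
The first motif was in 3.44% and the second in 2.72% of all 32851 windows in the table, and the letters of the pair cannot match at the same place on one strand. The kB motif GGGANNTTCC, in 1.47% of all windows, was in 0 of the 8 windows. The GAS motif TTCNNNGAA, in 8.30% of all windows, was in a window of Adar and in that of Eif2ak2. The Mavs window held none of the 4. A match describes the letters only and does not show that a factor binds there.

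Depth was even, at 26490593 to 31417833 counts per library, and the lowest count of any of the 8 genes in any library was 242. Levels are given as CPM, which sets each count against a library total scaled by the trimmed mean of M values (TMM). Tmem173, the gene named in the genotype, was at 82.8, 101 and 95.8 CPM in Tmem173-/- cGAMP libraries and at 80.2, 94.7 and 103 CPM in Tmem173-/- control libraries. In wild type cells it was at 44.6, 49.2 and 48.0 CPM with cGAMP and at 91.1, 102 and 92.6 CPM in controls. Its RNA was thus not lower in the libraries labelled Tmem173-/-, and the genotype of each library is taken from its label in all that follows. Summed B cell markers ranged from 5233 to 6316 CPM in Tmem173-/- cGAMP, from 5327 to 6067 in Tmem173-/- control, from 3511 to 4279 in wild type cGAMP and from 5051 to 6099 in wild type control, with none of the 8 markers at 0. The T cell markers summed to 11.1 to 20.5 CPM in the replicate 1 libraries of both wild type groups against 1.99 to 4.69 in the other 10 libraries, and the neutrophil markers to 9.26 to 23.8 against 0 to 1.77.

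In wild type cells, the question was which of these genes a STING agonist changes in B cells. After cGAMP, 7 of the 8 genes rose and Mavs fell at an edgeR adjusted p under 0.05. Ifih1 rose most, by 32.1-fold, and stood 23rd of the 14473 tested genes in size of rise. Zbp1, Dhx58, Eif2ak2 and Ddx58 rose between 2.71- and 6.60-fold, and Adar and Trim25 by 1.80- and 1.62-fold. Over all 14473 tested genes, 22.4% rose and 25.4% fell, and 6.76% rose at least 2-fold, as 5 of the 8 did. The median log2 change was 1.5 over the 8 genes and -0.00 over all tested genes.

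The 3 RIG-I-like receptors rose by very different amounts. Ifih1 encodes MDA5, which binds long double-stranded RNA. Ifih1 RNA stood at 450.3, 459.8 and 462 CPM in wild type cGAMP libraries, against 10.8, 12.3 and 19.6 CPM in wild type control libraries. The groups were far apart, with the treated libraries close together and control replicate 3 the highest of the controls. The log2 change was 5.00 (SE 0.20, 95% interval 4.56 to 5.44, edgeR adjusted p = 9.47e-10).

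Ddx58 encodes RIG-I, which binds RNA with a triphosphate end. Its level was 160.8, 189 and 164.5 CPM in wild type cGAMP libraries, against 51.9, 67.1 and 70.9 CPM in wild type control libraries. The ranges did not overlap, and the log2 change was 1.44 (SE 0.14, edgeR adjusted p = 6.67e-07). Dhx58 encodes LGP2, which lacks the signalling domain of the other two and modulates them. Its level was 198, 206 and 186 CPM in wild type cGAMP libraries, against 31.7, 41.0 and 60.0 CPM in wild type control libraries. Again no control library reached the treated range, and replicate 3 was the highest control. The log2 change of Dhx58 was 2.15 (SE 0.20, edgeR adjusted p = 2.41e-06).

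Mavs, the adaptor that all RIG-I-like receptor signals pass through, was the gene that fell. Mavs RNA stood at 49.8, 41.0 and 52.8 CPM in wild type cGAMP libraries, against 62.8, 56.3 and 59.5 CPM in wild type control libraries. The ranges did not overlap but came within a few CPM of each other, and cGAMP replicate 2 was the lowest library. The log2 change was -0.31 (SE 0.10, 95% interval -0.52 to -0.11, edgeR adjusted p = 0.0147). This call was lost when wild type cGAMP replicate 2 was left out (adjusted p = 0.0742 with edgeR), without wild type control replicate 1 (0.0525), without both wild type replicate 1 libraries (0.0702), with library totals alone (0.0574) and on log2(FPKM + 1) with limma (0.0693). The range over all alternatives was 0.00294 to 0.0742, and the sign held in each.

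Trim25 encodes a ubiquitin ligase reported to act on RIG-I. Its level was 373, 395 and 373 CPM in wild type cGAMP libraries, against 212, 243 and 249.95 CPM in wild type control libraries. The treated libraries were all above the controls, by a log2 change of 0.70 (SE 0.09, edgeR adjusted p = 1.61e-05).

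Among the effectors outside the MAVS pathway, Zbp1 rose most. ZBP1 binds Z-form nucleic acid and engages the kinase RIPK3. Zbp1 was at 404, 466 and 374 CPM in wild type cGAMP libraries, against 40.2, 57.7 and 90.7 CPM in wild type control libraries. The controls varied more than for any other of the 8 genes, with replicate 3 at 1.85 times the mean of replicates 1 and 2, yet stayed well below the treated range. The log2 change was 2.72 (SE 0.24, 95% interval 2.19 to 3.25, edgeR adjusted p = 3.63e-06).

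Eif2ak2 encodes PKR, a kinase that phosphorylates the translation factor eIF2 alpha when it binds double-stranded RNA. Eif2ak2 RNA was found at 171, 179 and 165 CPM in wild type cGAMP libraries, against 48.3, 55.4 and 70.3 CPM in wild type control libraries. Adar, which encodes the editing enzyme ADAR1, was at 372, 392 and 398 CPM in wild type cGAMP libraries, against 199, 219 and 229 CPM in wild type control libraries. Both genes were higher in each treated library than in any control. The log2 change was 1.56 for Eif2ak2 (SE 0.14, edgeR adjusted p = 3.80e-07) and 0.85 for Adar (SE 0.09, edgeR adjusted p = 8.46e-07). Counts per gene do not separate the interferon-inducible long isoform of Adar from the short one.

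**Figure D1:**
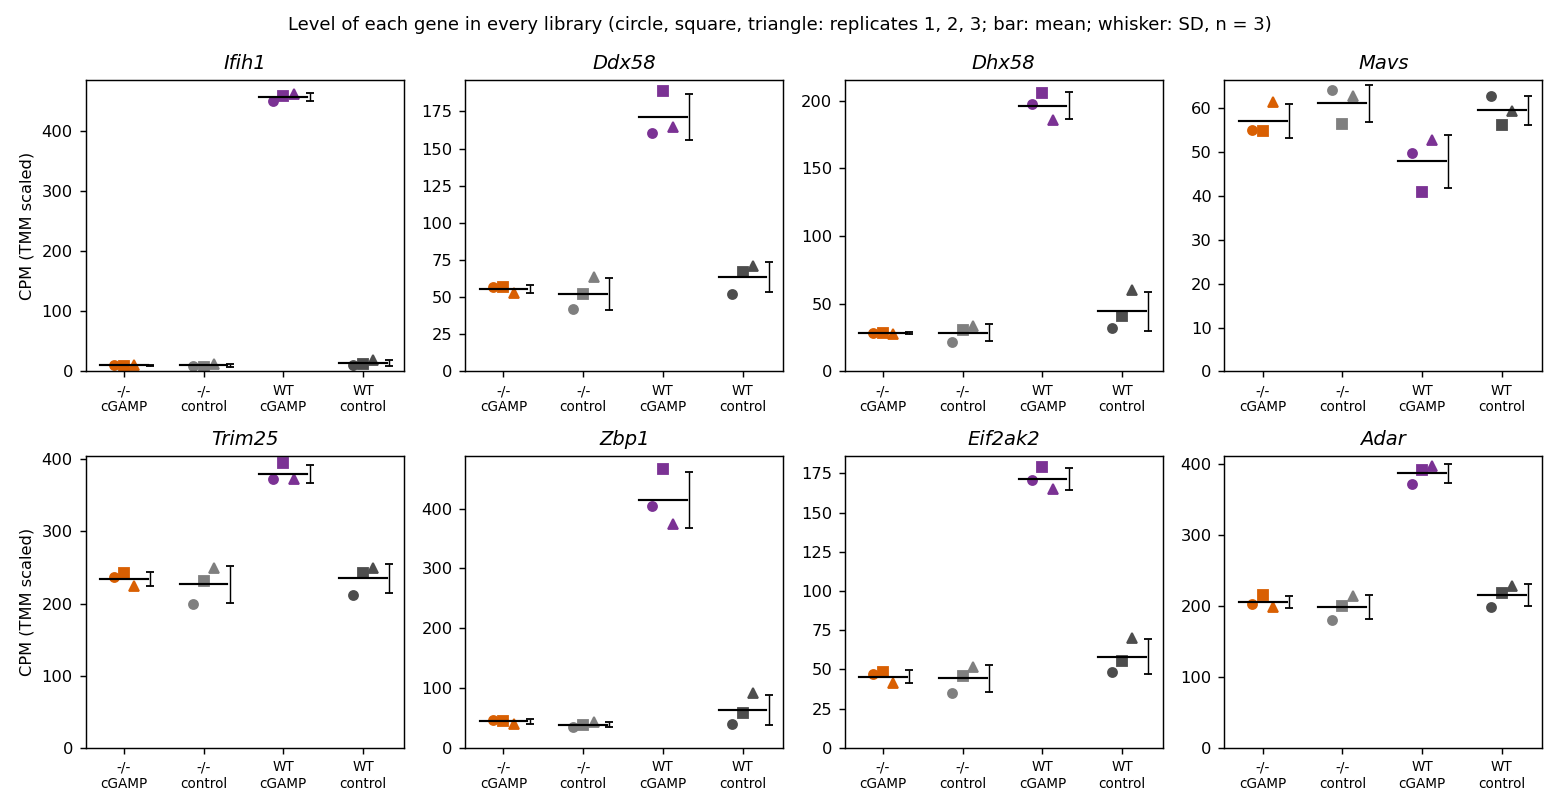
Level of each of the 8 genes (y axis, CPM after TMM scaling, from 0) in each of the 12 libraries, by group on the x axis; symbols mark replicate numbers, the bar is the mean and the whisker the SD of 3 libraries. The wild type cGAMP libraries stand apart in every panel, below the others for Mavs and above them for the other 7 genes.

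The ranges of wild type cGAMP and wild type control did not overlap for any of the 8 genes, while this held for 54.4% of all tested genes. In the plot of levels by library, the replicate 3 wild type control stood above the mean of the other wild type controls by 1.69 times for Ifih1, 1.65 for Dhx58, 1.36 for Eif2ak2 and 1.19 for Ddx58. For Trim25 and Adar the ratio was 1.10 each, and for Mavs 0.999. Leaving this library out changed the median log2 response of the 8 genes to 1.62. Leaving out both wild type replicate 1 libraries, which held the T cell and neutrophil transcripts, changed it to 1.40.

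The dendritic cell markers summed to 36.5 to 44.8 CPM in wild type cGAMP and 15.1 to 20.0 CPM in wild type control. Flt3 and Zbtb46 rose, Itgax and Xcr1 were tested and did not pass, and 2 of the 6 markers were too low to test. The part of this shift, and of the lower summed B cell markers in wild type cGAMP, in the changes of the 8 genes was not tested.

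Together the 8 genes took 0.0686, 0.0692 and 0.0667% of all counts in Tmem173-/- cGAMP libraries and 0.0571, 0.0673 and 0.0756% in Tmem173-/- control libraries. They took 0.223, 0.238 and 0.221% in wild type cGAMP libraries and 0.0653, 0.0758 and 0.0777% in wild type control libraries. The wild type cGAMP share thus stood alone, and the other 9 libraries overlapped.

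Levels of different genes were compared per length, on the deposited FPKM (counts scaled by library total and by a length for each gene). In wild type cGAMP cells Zbp1 (209 FPKM) and Dhx58 (204 FPKM) were highest and overlapped. Ifih1 (156 FPKM) and Adar (150.5 FPKM) followed, then Eif2ak2 (113 FPKM) and Ddx58 (108 FPKM), which overlapped, then Trim25 (92.4 FPKM) and Mavs (20.0 FPKM). In wild type control cells Adar was highest (79.7 FPKM) and Ifih1 lowest (4.57 FPKM). The neighbours from Trim25 through Dhx58, Ddx58, Eif2ak2 and Zbp1 to Mavs, at 54.4 to 23.7 FPKM, each overlapped the next.

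In both Tmem173-/- groups the order of FPKM also began with Adar and Trim25 and ended with Ifih1. Adar averaged 78.5 FPKM in Tmem173-/- cGAMP and 76.2 FPKM in Tmem173-/- control, while Ifih1 averaged 3.44 FPKM in Tmem173-/- cGAMP and 3.37 FPKM in Tmem173-/- control. The order depends on the length used, since the length behind the deposited FPKM is shorter than the gene length listed beside the counts for all 8 genes (for Ddx58, 1615 against 7050 bases). With the listed length, Trim25 (67.4 counts per kilobase, scaled by library total) stood above Dhx58 (61.2) in wild type cGAMP cells and was the highest gene in wild type control cells (39.6 on the same scale). Zbp1 remained the highest in wild type cGAMP cells (119.9) and Ifih1 the lowest in wild type control cells (1.68).

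**Figure D2:**
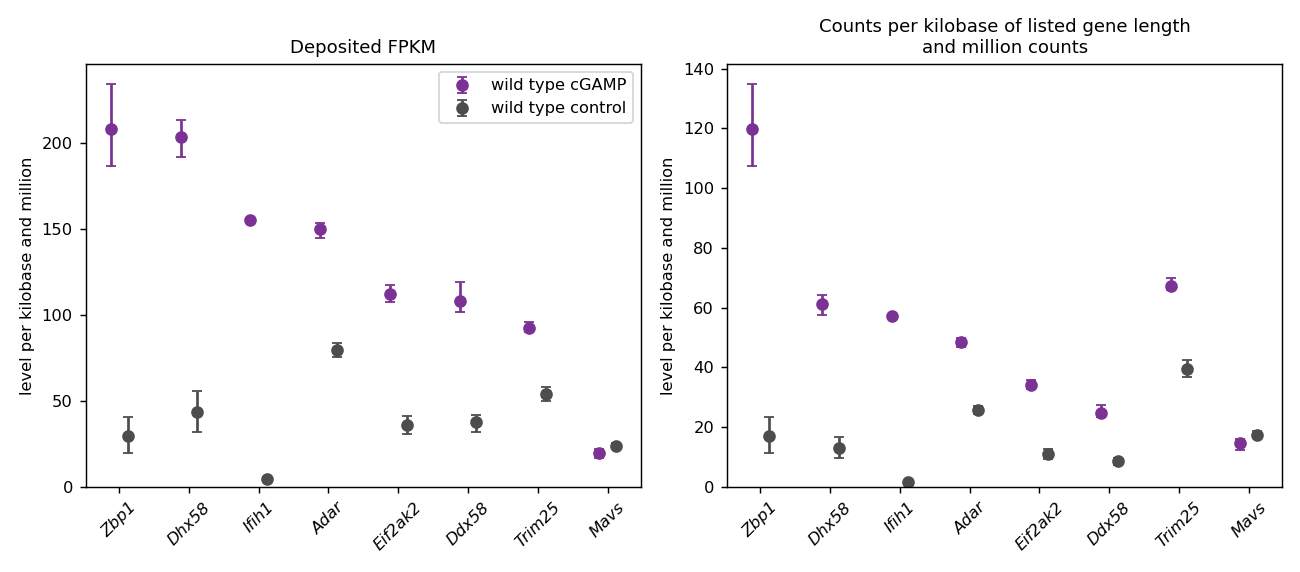
Level per kilobase of gene and scaled to library totals (y axis, from 0) of each gene in wild type cGAMP and wild type control libraries, on the deposited FPKM (left) and on the listed gene length (right); points are means and bars run from the lowest to the highest of 3 libraries. Zbp1 is highest after cGAMP on both scales, while the place of Trim25 differs between them.

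The ratio of summed receptor RNA to Mavs RNA, which recombines the levels above, shifted with these changes. In wild type cGAMP the largest part of the sum was Dhx58 (204 FPKM), whose product lacks the signalling domain. The summed FPKM of Ifih1, Ddx58 and Dhx58 over the FPKM of Mavs was 3.00, 3.00 and 2.53 in Tmem173-/- cGAMP and 1.94, 2.87 and 3.00 in Tmem173-/- control. It was 22.1, 28.6 and 20.6 in wild type cGAMP and 2.64, 3.80 and 4.58 in wild type control. On this scale only the wild type cGAMP libraries were above 20. The level of the ratio depends on the gene length used. With the listed length it was 9.29, 11.9 and 8.66 in wild type cGAMP and 0.978, 1.40 and 1.73 in wild type control. It was then 1.10, 1.10 and 0.929 in Tmem173-/- cGAMP and 0.712, 1.05 and 1.10 in Tmem173-/- control. On FPKM, the mean log2 ratio was 2.71 higher in wild type cGAMP than in wild type control and 0.15 higher in Tmem173-/- cGAMP than in Tmem173-/- control. MDA5 transcripts made up 33.3, 32.0 and 34.6% of the receptor FPKM in wild type cGAMP libraries, against 5.31, 4.69 and 5.86% in wild type control libraries. With the listed length these shares were 39.9, 38.6 and 41.4% in wild type cGAMP and 7.21, 6.39 and 7.80% in wild type control.

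**Figure D3:**
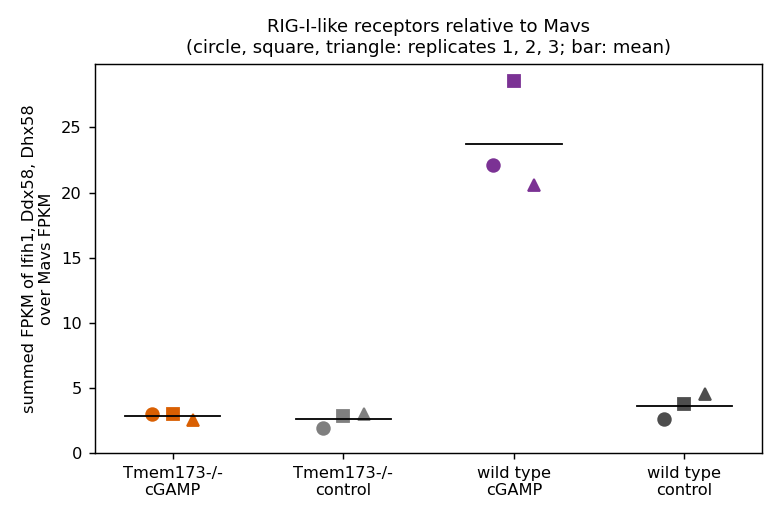
Summed FPKM of the receptor genes Ifih1, Ddx58 and Dhx58 divided by the FPKM of Mavs (y axis, from 0) in each library, by group on the x axis; symbols mark replicate numbers and the bar is the mean. Wild type cGAMP libraries lie between 20.6 and 28.6, and all others lie at or below 4.58.

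In Tmem173-/- cells, the question was whether the agonist changes these genes where the label says that STING is lacking. None of the 8 genes passed the test, and each had an edgeR adjusted p of 1. Log2 changes ran from -0.10 for Mavs to 0.18 for Zbp1. The same test called 0% of all tested genes, with 203 of them (1.4%) and 0 of the 8 at an unadjusted p under 0.05, and DESeq2 also called 0 genes.

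Ifih1 was at 10.8, 9.55 and 10.5 CPM in Tmem173-/- cGAMP libraries, against 9.48, 8.12 and 12.4 CPM in Tmem173-/- control libraries. Zbp1 was at 47.0, 45.3 and 39.5 CPM in Tmem173-/- cGAMP libraries, against 34.0, 38.7 and 43.2 CPM in Tmem173-/- control libraries. Both pairs of ranges overlapped, as did those of the other 6 genes, while 6.64% of all tested genes had ranges apart. The 95% interval of the log2 change was -0.38 to 0.46 for Ifih1 and -0.33 to 0.70 for Zbp1, so a rise of up to 1.62-fold lies within the interval of Zbp1.

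Ddx58 was at 57.1, 56.5 and 52.6 CPM in Tmem173-/- cGAMP libraries, against 41.9, 51.8 and 63.4 CPM in Tmem173-/- control libraries. Dhx58 was at 28.2, 28.7 and 27.3 CPM in Tmem173-/- cGAMP libraries, against 21.5, 30.9 and 33.2 CPM in Tmem173-/- control libraries. Eif2ak2 was at 46.8, 48.4 and 41.1 CPM in Tmem173-/- cGAMP libraries, against 35.0, 45.9 and 51.6 CPM in Tmem173-/- control libraries. For these 3 genes the control libraries spread widely on both sides of the treated ones.

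Mavs was at 55.1, 54.8 and 61.6 CPM in Tmem173-/- cGAMP libraries, against 64.3, 56.4 and 62.8 CPM in Tmem173-/- control libraries. Trim25 was at 238, 242 and 224 CPM in Tmem173-/- cGAMP libraries, against 199.3, 231.9 and 249.5 CPM in Tmem173-/- control libraries. Adar was at 203, 216 and 199 CPM in Tmem173-/- cGAMP libraries, against 180.3, 200.5 and 214 CPM in Tmem173-/- control libraries. The log2 change was -0.10 for Mavs (95% interval -0.30 to 0.11), 0.05 for Trim25 (-0.15 to 0.24) and 0.05 for Adar (-0.13 to 0.23).

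The responses of the genotypes were then compared directly, as the Tmem173-/- response minus the wild type response. This difference was below 0 and past the threshold for 7 of the 8 genes, against 14.1% of all tested genes. It was -4.96 for Ifih1 (SE 0.27, edgeR adjusted p = 6.05e-08), -2.54 for Zbp1 (SE 0.33, edgeR adjusted p = 0.000185) and -2.17 for Dhx58 (SE 0.28, edgeR adjusted p = 0.000107). The other 4, Eif2ak2, Ddx58, Adar and Trim25, had differences of -1.52, -1.36, -0.79 and -0.65, with edgeR adjusted p between 4.38e-05 and 0.00149. For Mavs the difference was 0.22 (95% interval -0.08 to 0.51, edgeR adjusted p = 0.256), so the fall in wild type cells was not shown to differ from the value in Tmem173-/- cells.

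**Figure D4:**
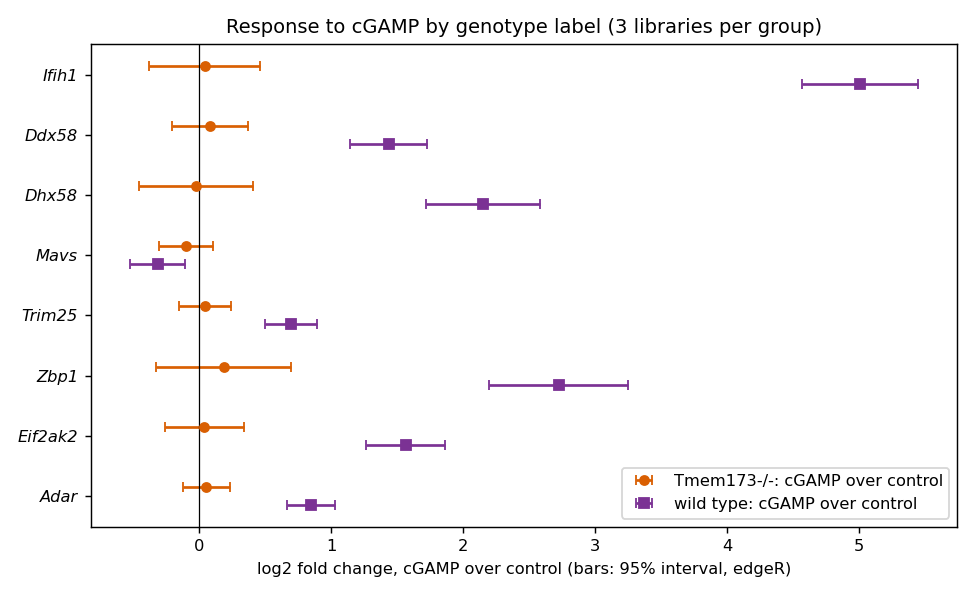
Log2 fold change of each gene, cGAMP over control (x axis), in Tmem173-/- and in wild type libraries; points are edgeR estimates and bars 95% intervals, with 3 libraries per group. The Tmem173-/- intervals all include 0, and the intervals of the genotypes overlap only for Mavs.

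Without treatment, Tmem173-/- and wild type libraries were compared to ask whether the genotype alone goes with other levels. None of the 8 genes passed the test, at edgeR adjusted p between 0.728 and 0.938, and the ranges of all 8 overlapped, as against 9.09% of all tested genes with ranges apart. The same test called 0% of all tested genes. Of these, 921 (6.36%) had an unadjusted p under 0.05, and DESeq2 called 4, none of them among the 8. The genes at an unadjusted p under 0.05 included Zbp1, Dhx58, Ifih1 and Eif2ak2, with log2 differences of -0.70, -0.63, -0.51 and -0.39. These are the 4 of the 8 genes for which wild type control replicate 3 stood furthest above the other wild type controls, by ratio. Without that library the log2 differences were -0.34 for Zbp1, -0.35 for Dhx58, -0.21 for Ifih1 and -0.23 for Eif2ak2. Without the filter on low counts, these 4 passed the threshold as lower in Tmem173-/- control, at edgeR adjusted p of 1.95e-08, 1.93e-06, 0.00346 and 0.0426, among 151 genes in all. For Ddx58, Adar, Trim25 and Mavs the log2 differences were -0.27, -0.12, -0.05 and 0.04, and the signs of those for Trim25 and Mavs depended on the scaling or on single libraries.

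Between the treated groups, 7 genes were lower in Tmem173-/- cGAMP than in wild type cGAMP, against 23.5% of all tested genes, and Mavs was higher, as were 24.9%. This comparison shares its wild type cGAMP libraries with the wild type response. Ifih1 was 44.5-fold, Zbp1 9.44-fold and Dhx58 7.0-fold lower, with edgeR adjusted p of 5.25e-10, 9.71e-07 and 2.59e-07. Eif2ak2 was 3.78-fold, Ddx58 3.09-fold, Adar 1.88-fold and Trim25 1.62-fold lower. The ranges of all 8 genes were apart, as were those of 58.9% of all tested genes. Mavs was higher by a log2 difference of 0.25 (SE 0.10, edgeR adjusted p = 0.0415), and over the alternatives its adjusted p ran from 0.0147 to 0.192. That call was lost without any 1 of the 3 Tmem173-/- cGAMP libraries or without wild type cGAMP replicate 1 or 2. It was also lost with library totals alone (adjusted p = 0.0744 with edgeR), when both wild type replicate 1 libraries were left out (0.0615) and on log2(FPKM + 1) with limma (0.0877).

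Lists of genes that work with the 8 were examined for the same response in wild type cells. Of 93 tested genes in 6 lists, each counted once where lists share it, 38 rose, 26 fell and 29 did not pass the test, with a median log2 change of 0.15. Over all tested genes 22.4% rose and 25.4% fell, the shares to set beside this count and those of the single lists. In the Tmem173-/- response none of the 93 passed. The difference between the responses was past the threshold and below 0 for 26 of the 93 and past it and above 0 for 17, while 50 did not pass. Over all tested genes these shares were 14.1% below 0 and 17.5% above 0.

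Downstream of MAVS, 7 of 17 genes rose, 5 fell and 5 missed the threshold, with a median log2 change of 0.23. Irf7, the transcription factor that amplifies interferon production, was at 666 ± 81.6 CPM in wild type cGAMP and 46.5 ± 38.3 CPM in wild type control (SD, n = 3 each), a log2 change of 3.84 (SE 0.59, edgeR adjusted p = 0.000761). Tbk1, the kinase that activates IRF3, rose by 0.51, and Chuk, a kinase of the NF-kB pathway, by 0.46. Fadd, an adaptor to caspase 8, fell by 0.47 on the log2 scale.

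Among regulators of RIG-I-like receptors and MAVS, 5 of 30 tested genes rose, 14 fell and 11 missed the threshold, at a median of -0.20, and Trim31 was too low to test. Usp15, a deubiquitinase, was at 133 ± 7.35 CPM in wild type cGAMP and 82.8 ± 1.33 CPM in wild type control (SD, n = 3 each), a log2 change of 0.68. Trim14, which docks on MAVS, rose by 0.57. Ndfip1, an adaptor of Nedd4-family ubiquitin ligases, fell by 0.63, and Ppp1ca, a catalytic subunit of the phosphatase that removes inhibitory phosphates from the receptors, fell by 0.57.

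Other RNA helicases with reported sensing roles mostly rose: 10 of 11 passed as higher, Ddx6 did not pass, and the median was 0.43. Ddx60, a helicase reported to promote RIG-I-like receptor signalling, was at 46.7 ± 6.79 CPM in wild type cGAMP and 7.51 ± 3.26 CPM in wild type control (SD, n = 3 each), a log2 change of 2.63 (SE 0.27, edgeR adjusted p = 4.41e-06). The helicases Dhx33 and Ddx21 rose by 0.80 and 0.66, and Skiv2l, a subunit of the cytosolic complex that feeds RNA to the exosome, by 0.49. Without wild type cGAMP replicate 1, or without wild type control replicate 2, 6 of the 11 passed.

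Of 14 tested genes for other double-stranded RNA-binding proteins, 6 rose, 4 fell and 4 missed the threshold, at a median of 0.15. Adad1 and Adad2 were too low to test. Dgcr8, the partner of Drosha in microRNA processing, rose by 0.64, and Tarbp2, a partner of Dicer and an inhibitor of PKR, by 0.57. Prkra, an activator of PKR, fell by 0.80 on the log2 scale, at 3.73 ± 0.696 CPM in wild type cGAMP and 6.50 ± 1.15 CPM in wild type control (SD, n = 3 each). Stau2, a protein of RNA transport granules, fell by 0.78.

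In the pathway that PKR acts on, 8 of 17 genes rose, Dnajc3 fell and 8 missed the threshold, with a median of 0.24. The other kinases of eIF2 alpha, Eif2ak1, Eif2ak3 and Eif2ak4, were among those that did not pass. Ppp1r15a, the subunit that directs dephosphorylation of eIF2 alpha, was at 71.9 ± 5.49 CPM in wild type cGAMP and 33.3 ± 1.05 CPM in wild type control (SD, n = 3 each), a log2 change of 1.11 (SE 0.08, edgeR adjusted p = 4.38e-08). Eif2b3, a subunit of the exchange factor for eIF2, rose by 0.87, Atf4, a transcription factor translated when eIF2 alpha is phosphorylated, by 0.74, and Eif2s1, eIF2 alpha itself, by 0.64.

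The partners of ZBP1 in cell death split. Of 7 genes, 2 rose, 4 fell and Ripk1 did not pass, with a median of -0.23. Mlkl, which permeabilises the membrane in necroptosis, was at 29.6 ± 5.47 CPM in wild type cGAMP and 2.96 ± 0.584 CPM in wild type control (SD, n = 3 each), a log2 change of 3.32 (SE 0.28, edgeR adjusted p = 3.68e-07). Cflar, an inhibitor of caspase 8, rose by 1.02. Ripk3, the kinase that ZBP1 binds and that phosphorylates MLKL, fell by 0.81, at 19.7 ± 0.447 CPM in wild type cGAMP and 34.5 ± 2.87 CPM in wild type control (SD, n = 3 each). Casp6, a caspase, fell by 1.19.

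**Figure D5:**
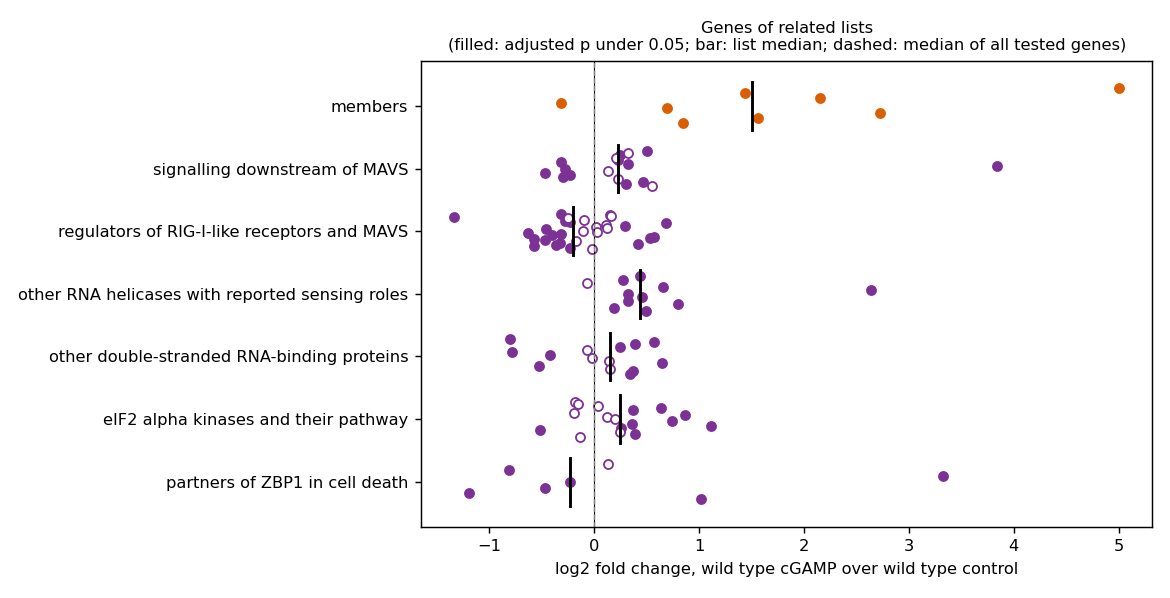
Log2 fold change, wild type cGAMP over wild type control (x axis), of the 8 genes (top row) and of the tested genes of 6 related lists (rows); filled points passed an adjusted p of 0.05 and bars are list medians. The medians of the related lists lie between -0.23 and 0.43, below the 1.5 of the 8 genes.

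Over the 12 libraries, the 7 genes other than Mavs varied together, with Pearson r of log2 CPM between 0.968 and 0.997 for each pair. Mavs had r between -0.85 and -0.77 with them. All these values come from the same 12 libraries and follow largely from the wild type cGAMP group. Among 9060 other genes with a mean of at least 5 CPM, the nearest in pattern to Zbp1 were Oasl1 and Oasl2 (r = 0.998 and 0.997), and to Ddx58 Mx1 and Ifi213 (r = 0.997 and 0.996). The nearest to Dhx58 were Rsad2 and Trim30d (r = 0.997 and 0.996), to Eif2ak2 Trim30d and Cmpk2 (r = 0.996 and 0.995), and to Adar Parp14 and Rnf213 (r = 0.996 and 0.992). The nearest to Ifih1 were Herc6 and Xpo1 (r = 0.994 each), and to Trim25 Gbp4 and Slfn8 (r = 0.990 each). Mavs had lower values with its nearest genes, Igsf8 and Vps8 (r = 0.960 and 0.953), which also had lower means in wild type cGAMP than in wild type control.

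For 3 of the 8 genes, another annotated gene overlaps on the other strand, and without a stated strandedness the reads of such a pair cannot be told apart. At Dhx58 the antisense gene Dhx58os had 0, 8 and 10 counts in Tmem173-/- cGAMP and 8, 8 and 12 in Tmem173-/- control, against 70, 80 and 40 in wild type cGAMP and 7, 6 and 4 in wild type control. At Eif2ak2 the noncoding gene Gm26637 had 178 summed counts in Tmem173-/- cGAMP and 162 in Tmem173-/- control, against 574 in wild type cGAMP and 196 in wild type control, while the ribosomal RNA gene n-R5s29 had at most 15 counts in any library. At Adar the receptor gene Chrnb2 had 519 in Tmem173-/- cGAMP and 526 in Tmem173-/- control, against 1005 in wild type cGAMP and 494 in wild type control. Each of these counts was small beside those of its partner, which were 5223 to 5972 per library for Dhx58, 4633 to 5197 for Eif2ak2 and 10226 to 11388 for Adar in wild type cGAMP.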

How the data were processed

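RNA from B lymphocytes was sequenced as poly-A RNA in 12 libraries. The tools were fastp, STAR and featureCounts with the builds GRCm38 and mm10, per the submitters' processing notes. Versions, the annotation release and strandedness are not given in the sources used here. The authors deposited whole-number counts for 54532 genes and, from the same counts, FPKM values, whose per-gene length is constant across libraries and shorter than the listed length for 15333 of 26792 genes with a count.

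Tests on the deposited counts used edgeR 4.0.16 under R 4.3.3 (filterByExpr by group, 14473 genes, TMM, robust quasi-likelihood F tests, two-sided, a mean for each of the 4 groups). P-values were adjusted by Benjamini-Hochberg over all tested genes, separately for 5 comparisons, and called below 0.05. These were cGAMP against control in each genotype, the difference of these responses, and Tmem173-/- against wild type in control and in cGAMP libraries. The SE is the log2 change over the square root of F. The 95% intervals and SEs cover the spread between libraries.

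The 8 genes, the lists and the tests were chosen with earlier results of these data known. Named genes were the 8, Tmem173, up to 4 genes past the threshold with the largest change from each related list (averaging 5 CPM or more in the higher group), the 2 genes nearest to each of the 8 by Pearson r, and overlapping genes. Where 103 identifiers shared a name with another, the plain name went to the more abundant one. Alternatives were other scalings, no filter, DESeq2 1.42.0, limma 3.58.1 (voom, and trend on log2(FPKM + 1)), only the groups compared, replicate blocks, and leaving out libraries.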

Additional observations from a re-analysis of the deposited data

Results flagged for a closer look

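Among the 8 genes, Tmem173 and the genes named from the related lists, the response to cGAMP differed between the genotypes for 31. The test was of the difference itself (edgeR interaction term, adjusted p under 0.05). Values are the Tmem173-/- response minus the wild type response on the log2 scale. The only genes of this set that did not pass were Mavs (edgeR adjusted p = 0.256) and Eif2s1 (0.089). Over all tested genes, 31.6% passed in either direction. The list genes were named for a large change in wild type cells. This test uses the same wild type libraries, so their passing is not separate support. Among the 8 genes the values were -4.96 for Ifih1, -2.54 for Zbp1, -2.17 for Dhx58, -1.52 for Eif2ak2, -1.36 for Ddx58, -0.79 for Adar and -0.65 for Trim25. Each of these kept its sign and stayed past the threshold in every alternative run.

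Differences below 0 were also found for Irf7 (-3.60), Mlkl (-3.22), Ddx60 (-2.36), Ppp1r15a (-1.17), Cflar (-1.05), Eif2b3 (-0.95), Dhx33 (-0.84), Atf4 (-0.80), Usp15 (-0.71), Ddx21 (-0.67), Tarbp2 (-0.61), Dgcr8 (-0.60), Skiv2l (-0.56), Trim14 (-0.51), Tbk1 (-0.47) and Chuk (-0.41). Differences above 0 were found for Casp6 (1.16), Tmem173 (1.02), Stau2 (0.93), Prkra (0.92), Ripk3 (0.73), Ppp1ca (0.67), Ndfip1 (0.63) and Fadd (0.48). Some of these did not hold in every alternative. Without wild type cGAMP replicate 1 the adjusted p was 0.0584 for Fadd and 0.0544 for Prkra. Without both wild type replicate 1 libraries it was 0.0559 for Chuk and 0.0746 for Trim14.

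Fadd was also not past the threshold without wild type control replicate 2 (adjusted p 0.0587) or Tmem173-/- cGAMP replicate 3 (0.0534), with library totals alone (0.0615), without the filter on low counts (0.0522) or on log2(FPKM + 1) with limma (0.123). Prkra was not past it without wild type control replicate 3 (0.0535), Tmem173-/- control replicate 2 (0.0532) or Tmem173-/- control replicate 3 (0.0531). Eif2s1 did pass in some alternatives, among them library totals alone (edgeR adjusted p = 0.0228) and no filter on low counts (0.00699).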

How the results depend on the processing

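Over 5 comparisons and the alternatives run, 827 of the single values for the 8 genes kept their sign and their side of the threshold. All 13 that lost the threshold were for Mavs, as given with its results. Without the filter on low counts, 4 of the 8 genes passed as lower in Tmem173-/- control than in wild type control, and none passed with it. Of the genome-wide counts in Tmem173-/- cGAMP against Tmem173-/- control, the same setting gave 23 genes and the filtered fit 0. Leaving out 1 library at a time, 7 to 8 of the 8 passed in the wild type response and 7 to 8 between the treated groups. All 12 changes of sign were in values that did not pass the test. With limma-voom the Tmem173-/- response of Dhx58 was 0.0058, and with library totals alone the difference of Trim25 between controls was 0.0059. The other sign changes came from leaving out 1 library, over which the Tmem173-/- response ran from -0.084 to 0.22 for Ifih1, from -0.055 to 0.24 for Ddx58, from -0.19 to 0.10 for Dhx58, from -0.035 to 0.12 for Trim25, from -0.10 to 0.17 for Eif2ak2 and from -0.0073 to 0.11 for Adar. The difference between controls ran from -0.00090 to 0.095 for Mavs and from -0.12 to 0.040 for Trim25. The log2 shift of the receptor to Mavs ratio in wild type cells was 2.71 on FPKM, 2.89 on the listed length (added after seeing the data) and 3.11 on CPM. The cause of these changes was not tested. Under other scalings the median log2 change of all tested genes lay between -0.06 and 0.06.

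The labels do not say whether the replicate numbers pair the libraries, and the tests above did not pair them. Same-numbered control and cGAMP libraries deviated from their group means with r of 0.29, 0.096 and 0.17 in Tmem173-/- and 0.30, 0.22 and 0.083 in wild type. Each library correlated best with its own number. With the number as a replicate block, 8 genes passed in the wild type response, 0 in the Tmem173-/- response, 7 in the difference, 0 between controls and 8 between treated groups, as without it. The block changed the total of genes called in the wild type response to 7193, against 6921 without it. With the block nested in genotype, so that a number is not shared between genotypes, this total was 7749. For the difference of the responses the nested block gave 5660 genes, against 4569 without a block.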
